A study of Homo sapiens with 3 samples.

Results

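The RNA exosome is the main machine that degrades RNA from its 3′ end in human cells, and its 10 subunit genes EXOSC1 to EXOSC10 were followed in IMR-90, a line of fibroblasts from human fetal lung, after transfection of siRNAs against SETD8. SETD8, also known as PR-Set7 and now named KMT5A, is the enzyme behind monomethylation of histone H4 at lysine 20. The siRNAs compared were a control siRNA labelled GL3, SETD8-1 and SETD8-2, each transfected with RNAiMAX for 24 h and read on 1 array. The cells of all 3 groups were the same unmodified line, and the knockdown is transient. Members were all genes named EXOSC1 to EXOSC10, found through the array's annotation. All 10 passed the filter on low signal, among 12307 genes that passed of 19775 named. This gene family was chosen from earlier results on these same arrays, in which EXOSC8 had been named, so its differences from control are given as descriptions and support nothing by themselves. As each siRNA has 1 array and no replicate, no p-value can be given, and the effect of a siRNA and that of its array cannot be told apart.

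The core of the exosome is a barrel. Its ring is made of 6 proteins related to the bacterial enzyme RNase PH, EXOSC4 to EXOSC9. These stand in 3 pairs (EXOSC4 with EXOSC9, EXOSC8 with EXOSC5, and EXOSC6 with EXOSC7). On the ring, 3 RNA-binding proteins, EXOSC1, EXOSC2 and EXOSC3, form a cap. In human cells the barrel has lost its own catalytic activity, and RNA is cut by attached nucleases: EXOSC10 in the nucleus and nucleolus, DIS3 mainly in the nucleoplasm, and DIS3L in the cytoplasm. The complex trims ribosomal RNA precursors, removes short-lived nuclear transcripts and takes part in mRNA turnover.

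The sequences just before the gene starts were available from RefSeq (GRCh38.p14) for 8 of the members. EXOSC8 and EXOSC5 are shown because they were the members at least 1.5-fold lower on both SETD8 siRNA arrays, and EXOSC7 because it was the member with a sequence whose mean difference from control was nearest to 0. Each line holds the 250 bases before the start, 5′ to 3′ on the gene's strand, and capitals mark matches to any of 11 short motifs searched on both strands. EXOSC8 lies at chr13:37000536-37000785 (+ strand), EXOSC5 at chr19:41397360-41397609 (− strand) and EXOSC7 at chr3:44975994-44976243 (+ strand).
EXOSC8: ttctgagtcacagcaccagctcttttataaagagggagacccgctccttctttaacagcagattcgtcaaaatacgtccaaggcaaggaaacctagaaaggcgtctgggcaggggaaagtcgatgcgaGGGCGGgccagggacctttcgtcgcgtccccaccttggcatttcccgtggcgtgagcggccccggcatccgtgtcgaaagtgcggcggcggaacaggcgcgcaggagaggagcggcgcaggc
EXOSC5: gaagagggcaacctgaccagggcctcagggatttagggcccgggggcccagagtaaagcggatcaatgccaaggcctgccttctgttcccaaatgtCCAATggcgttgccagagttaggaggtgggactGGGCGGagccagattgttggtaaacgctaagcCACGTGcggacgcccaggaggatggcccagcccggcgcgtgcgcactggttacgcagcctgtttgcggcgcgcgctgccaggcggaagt
EXOSC7: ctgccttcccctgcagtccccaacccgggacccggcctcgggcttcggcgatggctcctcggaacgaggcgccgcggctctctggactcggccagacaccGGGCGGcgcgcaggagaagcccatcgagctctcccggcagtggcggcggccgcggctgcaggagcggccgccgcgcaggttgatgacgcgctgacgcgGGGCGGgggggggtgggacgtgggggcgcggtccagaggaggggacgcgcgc

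The search covered these 250 bases and the 50 that follow the start, not printed here. None of the 8 windows held an E2F site written as TTTCCCGC, TTTGGCGC or TTTCGCGC, which are found in 1.63%, 0.652% and 0.515% of all 35116 windows of that length. None held a cell cycle homology element written as TTTGAA (15.2% of windows) or TTCGAA (1.45%), or the ETS core CCGGAAG (10.3%). The SP1 box GGGCGG was in 7 of the 8 (all but EXOSC9), against 45.0% of windows, and the CCAAT box was in 4 (EXOSC2, EXOSC5, EXOSC9 and EXOSC10), against 34.6%. The YY1 core GATGGCG was in EXOSC8, from base 20 after the start, and in EXOSC2, from base 32, against 4.2% of windows. The E-box CACGTG was in EXOSC5 (7.26% of windows) and the NRF1 half-site GCATGCGC in EXOSC10 (3.05%). Base composition ran from 52.3% G and C in EXOSC9 to 76.0% in EXOSC7, with a median of 58.7% over all windows. A C followed by a G occurred from 19 times (EXOSC2) to 43 times (EXOSC7), against a median of 14 over all windows. The SP1 box holds such a pair of bases, and the shares of windows were not matched for it. These are matches of letters only. The SP1 box was present in all 3 genes shown, those lower on both arrays and EXOSC7 alike.

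The targeted gene was read first. KMT5A had 4 probe sets, all lower on both SETD8 siRNA arrays, and the brightest gave a signal of 939 with the control siRNA, 431 with SETD8-1 (45.9% of control) and 584 with SETD8-2 (62.2%). The other KMT5A probe sets read 68.6% to 74.7% of control with SETD8-1 and 73.5% to 86.3% with SETD8-2, so the brightest showed the strongest decrease. The arrays were alike in scale, with median signals of 44.9 to 46.2. As a stand-in for replicate spread, the arrays of SETD8-1 and SETD8-2 were set against each other over all genes. The 95th percentile of the absolute log2 difference was 1.72 for genes with signals from 184, 1.25 from 682 and 1.14 from 2103 upward. Noise and true differences between these siRNAs are mixed in it. The KMT5A values on the brightest probe set, -1.12 and -0.68 on the log2 scale, lie inside the 1.72 for genes of its signal. All 9 fibroblast markers passed the filter, and summed signals were 152556 in the control, 144428 with SETD8-1 and 160784 with SETD8-2. The sums hide single markers, of which 6 differed in sign between the siRNAs. DCN, for example, read 20075 in the control, 7746 with SETD8-1 and 22971 with SETD8-2. The epithelial, endothelial and leukocyte lists summed to at most 296 on any array. The 14 proliferation markers summed to 71588 in the control, 16859 with SETD8-1 and 17166 with SETD8-2.

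EXOSC8, a ring subunit, stood lowest of the 10 against control. It read 4228 on the control array, 1810.0 with SETD8-1 and 1430.4 with SETD8-2. Both SETD8 siRNA arrays were thus well under the control array and near each other, at 2.34-fold and 2.96-fold lower (log2 differences of -1.22 and -1.56, in the order SETD8-1 and SETD8-2, as in all pairs below). These differences were larger than the 1.14 that marks the spread for genes of this signal, which no other member's were. Over all genes, 2.82% had a mean difference from control as low as that of EXOSC8 or lower. EXOSC8 was the only member at least 2-fold lower with both siRNAs, 1 of 10, where 3.23% of all 12307 genes were, and none of the 10 was at least 2-fold higher with both, against 1.5% of all genes. The value rests on a single probe set whose suffix marks it as shared by several transcripts. The proliferation markers were lower on the same arrays, 13 of 14 by 2-fold or more on both, and their part in the EXOSC8 value was not tested. In RNA from whole cultures, fewer cells that express a gene and less of its RNA per cell cannot be told apart.

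**Figure D1:**
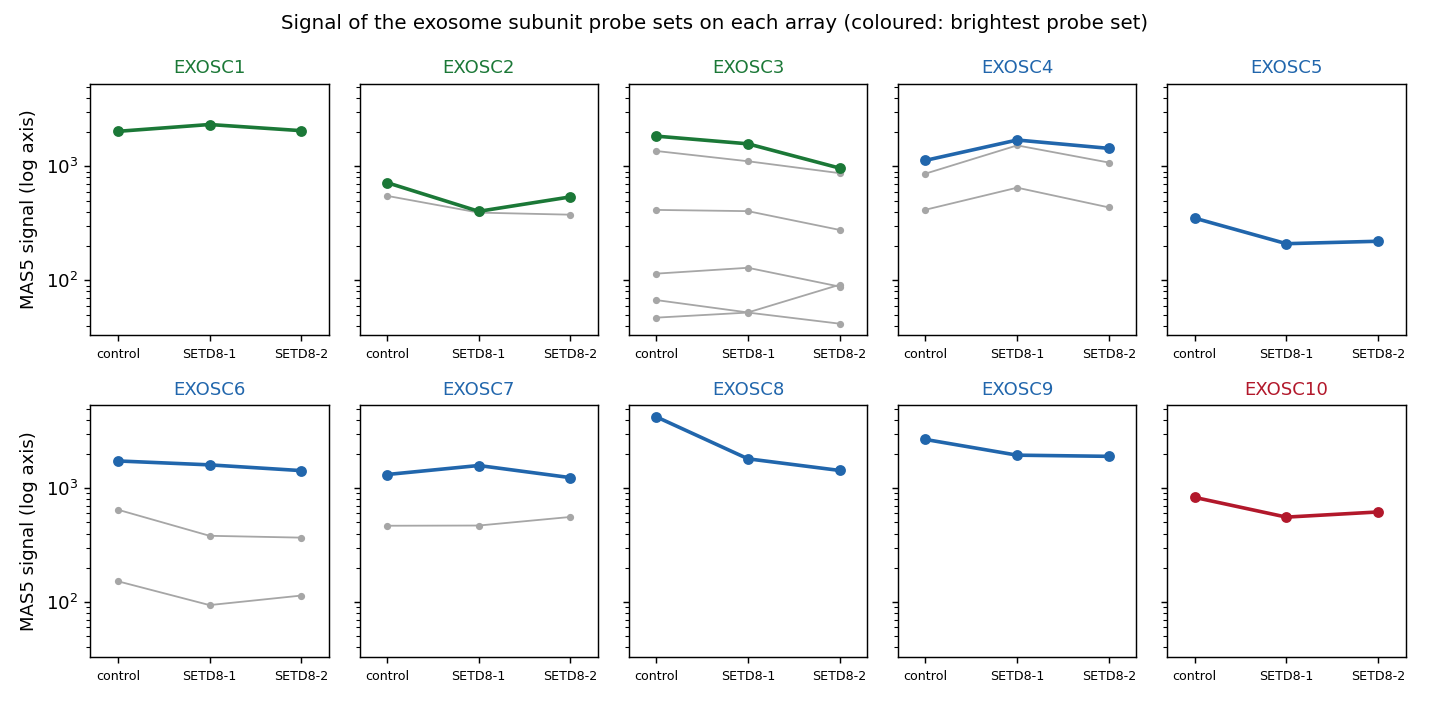
Signal of each probe set above the filter (vertical log axis, MAS5 signal) on the 3 arrays (horizontal axis), 1 panel per subunit. Coloured lines are the brightest probe set (green for the cap, blue for the ring, red for EXOSC10) and grey lines the others. EXOSC8 goes from 4228 in the control to 1810.0 and 1430.4, whereas the EXOSC4 lines lie higher on both SETD8 siRNA arrays than on the control array.

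EXOSC6, another ring subunit, differed much less than EXOSC8 on its brightest probe set. There the signal was 1733 in the control, 1602 with SETD8-1 and 1426 with SETD8-2 (-0.11 and -0.28). The other EXOSC6 probe sets were further down, one at 647, 382 and 368 (-0.76 and -0.81) and the dimmest at 153, 94.2 and 114 (-0.70 and -0.42). All 3 probe sets of EXOSC6 were thus lower on both SETD8 siRNA arrays, but they disagreed on size, with a mean of -0.52 ± 0.36 (SD over 3 probe sets) for SETD8-1 and -0.50 ± 0.27 for SETD8-2. On the brightest probe sets, EXOSC8 stood 1.11 and 1.28 below EXOSC6 in log2 difference.

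EXOSC4 was the member that went furthest the other way. Its brightest probe set read 1129.5 in the control, 1705 with SETD8-1 and 1440.1 with SETD8-2, or 1.51-fold and 1.27-fold higher. A second probe set read 864, 1529 and 1081 (0.82 and 0.32), and the third 417, 651 and 437 (0.64 and 0.07). All 3 were higher on both SETD8 siRNA arrays, more so with SETD8-1, and none reached the spread of 1.25 for genes of the brightest probe set's signal. The pair partner of EXOSC4 is EXOSC9, known with EXOSC10 as an autoantigen of polymyositis-scleroderma overlap. EXOSC9 had 1 probe set, with signals of 2676 in the control, 1948 with SETD8-1 and 1902 with SETD8-2 (-0.46 and -0.49). The SETD8 siRNA arrays were close to each other and both below the control, within the spread of 1.14. EXOSC4 and EXOSC9 thus lay on opposite sides of the control, 1.05 apart in log2 difference for SETD8-1 and 0.84 for SETD8-2.

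The ring subunits left are EXOSC5, the pair partner of EXOSC8, and EXOSC7, that of EXOSC6. EXOSC5, a ring subunit with 1 probe set, read 352 in the control, 209.9 with SETD8-1 and 220.5 with SETD8-2, or 1.68-fold and 1.6-fold lower (-0.75 and -0.67). The SETD8 siRNA arrays were nearly the same and both lower, but the difference is inside the spread of 1.72 for dimmer genes. EXOSC7 read 1318 in the control, 1581 with SETD8-1 and 1237 with SETD8-2 on its brightest probe set (0.26 and -0.09) and 468, 470.1 and 559 on the other (0.01 and 0.26). No direction was shared by its probe sets on the SETD8-2 array. A further probe set is annotated to EXOSC7 together with CLEC3B, so its signal cannot be assigned, and it was left out. EXOSC5, like its partner EXOSC8 (-1.22 and -1.56), was lower on both SETD8 siRNA arrays, though by less. The brightest probe sets of EXOSC6 (-0.11 and -0.28) and EXOSC7 differed in sign with SETD8-1 and were both lower with SETD8-2. For scale, the differences from control over all genes that passed the filter had SDs of 0.82 with SETD8-1 and 0.7 with SETD8-2. Whether partners lie closer together or further apart than unrelated genes do was not tested.

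**Figure D2:**
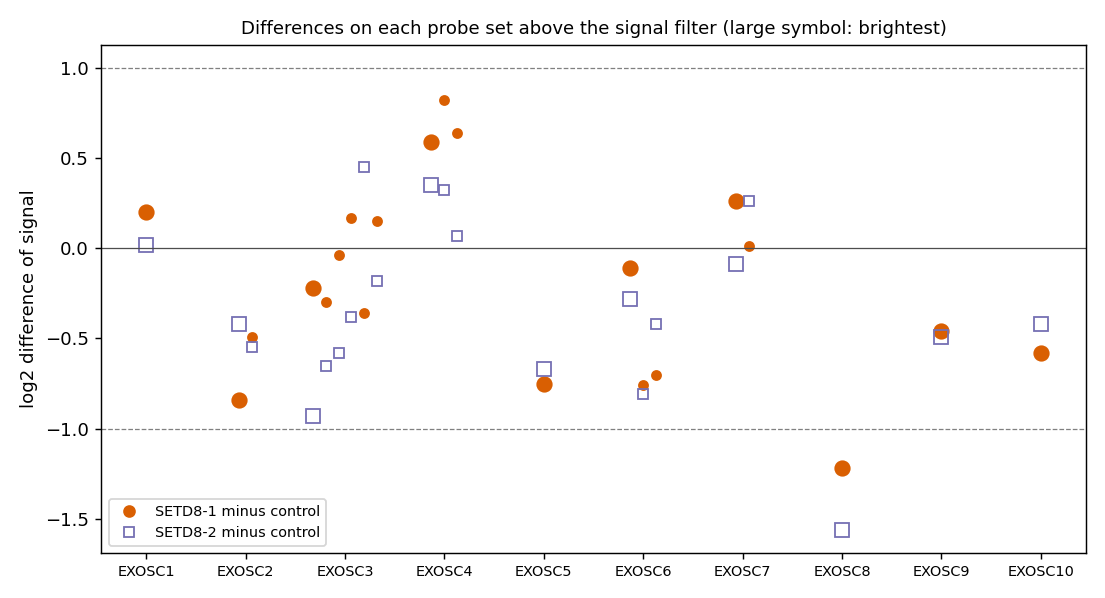
Log2 difference of signal from the control array (vertical axis) for every member probe set above the filter, grouped by gene (horizontal axis). Filled circles are SETD8-1, open squares SETD8-2, large symbols the brightest probe set, and dashed lines 2-fold. EXOSC8 is the only gene with symbols below the lower dashed line, the 3 probe sets of EXOSC4 lie above 0, and those of EXOSC3 and EXOSC6 are spread.

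Of the cap proteins, EXOSC2 was lower on both probe sets that could be read. The brighter gave 721 in the control, 404 with SETD8-1 and 540.3 with SETD8-2 (-0.84 and -0.42), and the other 552, 393 and 377 (-0.49 and -0.55). The control array was the highest on each, while the order of the SETD8 siRNA arrays turned between them. EXOSC3 had the most probe sets, 6. The brightest read 1844 in the control, 1579 with SETD8-1 and 966 with SETD8-2 (-0.22 and -0.93), so the array of SETD8-2 stood apart. The next brightest gave 1366, 1110.1 and 873 (-0.30 and -0.65). Over all 6 probe sets the mean was -0.10 ± 0.23 (SD) with SETD8-1 and -0.38 ± 0.48 with SETD8-2, and only 3 were lower with both siRNAs. One dim EXOSC3 probe set, the brightest of those not marked as shared between transcripts, read 67.2, 52.3 and 91.6 and was higher with SETD8-2 (-0.36 and 0.45), so the EXOSC3 difference depends on the probe set. EXOSC1, the remaining cap protein, had 3 probe sets, of which 1, marked as shared between transcripts, passed the filter. That probe set read 2032 in the control, 2332 with SETD8-1 and 2059 with SETD8-2 (0.20 and 0.02). The control and SETD8-2 arrays were thus nearly equal for EXOSC1.

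The nuclease EXOSC10 read 830.2 in the control, 557 with SETD8-1 and 618 with SETD8-2, 1.49-fold and 1.34-fold lower (-0.58 and -0.42), inside the spread of 1.72. Its second probe set was too dim to use. The cytoplasmic nuclease DIS3L read 748 in the control, 402 with SETD8-1 and 443 with SETD8-2, 1.86-fold and 1.69-fold lower (-0.90 and -0.75), also inside 1.72. DIS3, the processive nuclease of the nuclear exosome, read 1959 in the control, 2653 with SETD8-1 and 1858 with SETD8-2 (0.44 and -0.08), and was not lower on both. On the brightest probe sets, EXOSC10 and DIS3L thus had the control array highest, and DIS3 did not. DIS3 had 5 probe sets, of which only the brightest is given here.

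Over the 10 subunits, the median log2 difference from control was -0.34 for SETD8-1 (SD of 0.56 among the members) and -0.42 for SETD8-2 (SD of 0.53), where all genes had medians of -0.02 and -0.01. At any size, 7 of the 10 were lower with both siRNAs, 2 (EXOSC1 and EXOSC4) higher with both, and EXOSC7 differed in sign, against 33.9% of all genes lower and 31.1% higher with both. At 1.5-fold, 2 of the 10 (EXOSC5 and EXOSC8) were lower with both and none higher, against 7.38% and 4.6% of all genes. Both comparisons share the control array, so a deviation of that array alone would move all members' pairs together. Because the family was chosen with these differences known, the counts are descriptions. Of 25 member probe sets, 21 passed the filter, of which 12 were lower and 5 higher with both siRNAs, against 35.0% and 29.9% of all 27307 probe sets above the filter. With shared probe sets left out, 6 members had a value, 3 were lower with both, and the medians were -0.24 with SETD8-1 and -0.01 with SETD8-2.

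**Figure D3:**
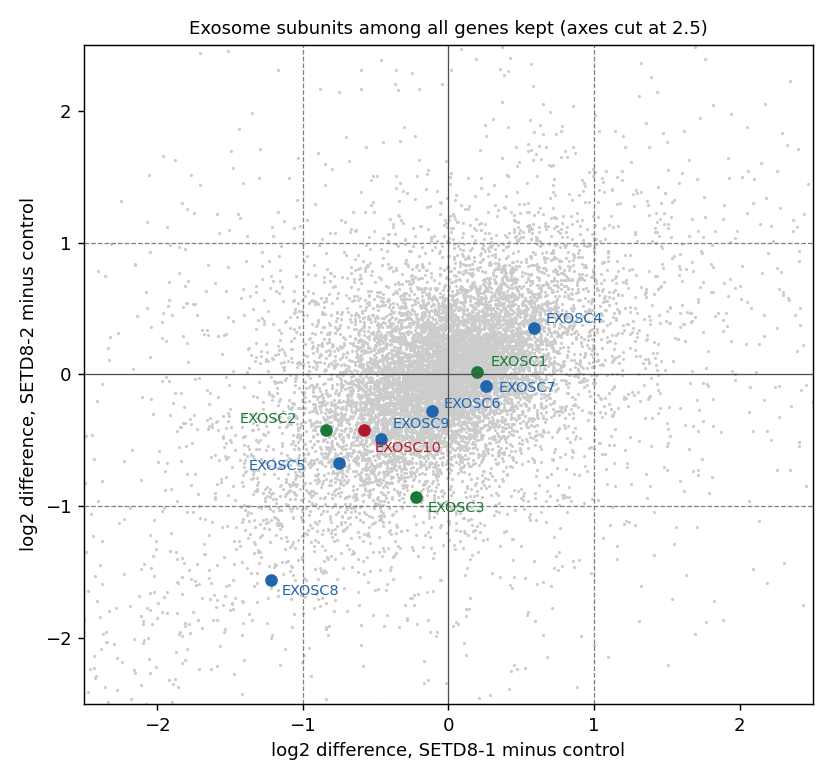
Log2 difference from control with SETD8-1 (horizontal axis) and SETD8-2 (vertical axis), for all genes that passed the filter (grey points) and the subunits (green for the cap, blue for the ring, red for EXOSC10). Dashed lines mark 2-fold and the axes are cut at 2.5, so some grey points are not shown. EXOSC8 lies at -1.22 and -1.56, beyond both dashed lines, and EXOSC4 on the opposite side of the origin.

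The SETD8 siRNAs were also set against each other. None of the 10 members was 2-fold apart between the SETD8 siRNA arrays, where 12.6% of all genes were, in either direction. The widest gap was that of EXOSC3, at -0.71 for SETD8-2 minus SETD8-1, followed by EXOSC2 at 0.42, EXOSC7 at -0.35 and EXOSC8 at -0.34. The median over the members was -0.17 (SD 0.31). With 1 array for each siRNA, no test of these gaps was possible.

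The pattern of EXOSC8 over the 3 arrays was closest, by Euclidean distance over its pair of log2 differences, to that of DCHS1 (a distance of 0.0531, signals of 1316 in the control, 565 with SETD8-1 and 429 with SETD8-2). CNTLN, INSL3, ADAMTS6 and LIG1 followed, at distances of 0.0894 to 0.108. This closeness rests on 2 values per gene from 3 arrays and was not tested.

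Some members have close neighbours in the RefSeq annotation. The gene model of EXOSC9 overlaps that of CCNA2, the cyclin A2 gene, which read 3697.0 in the control, 723 with SETD8-1 and 716 with SETD8-2 (-2.35 and -2.37), a far larger difference than that of EXOSC9 on the same arrays. The gene model of EXOSC8 overlaps that of SUPT20H, a subunit of the SAGA coactivator, which read 1635 in the control, 1473 with SETD8-1 and 1004 with SETD8-2 (-0.15 and -0.70). Whether a probe set lies in the overlap is not known here. EXOSC7 starts 70 bases from the start of ZDHHC3 on the other strand, and that gene read 1140.0, 993 and 1262 (-0.20 and 0.15), with differences as small as those of EXOSC7. EXOSC5 starts 459 bases from BCKDHA, which read 237, 349.9 and 110.2 (0.56 and -1.10) and so did not follow EXOSC5 on the SETD8-1 array.

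Cofactors and regulators of the nuclear exosome differed little. Of 16 that passed the filter, none was at least 2-fold lower or higher with both siRNAs, 9 were lower with both at any size and 2 higher, and the medians were -0.13 (SD 0.33) and -0.18 (SD 0.44). NRDE2, a negative regulator of the exosome helicase MTREX, read 217 in the control, 119.9 with SETD8-1 and 124 with SETD8-2 (-0.86 and -0.81). PABPN1, the nuclear poly(A)-binding protein that links polyadenylated RNA to the exosome, was on the other side at 177, 253 and 364 (0.51 and 1.04). ZCCHC8, the scaffold of the nuclear exosome targeting complex, had -0.52 and -0.58. NRDE2 and PABPN1 are dim, and their differences lie inside the spreads for genes of their signal, 2.21 and 1.72. Those of ZCCHC8 lie inside 1.25. The SKI complex and its partners, which feed mRNA to the cytoplasmic exosome, had medians of -0.06 and 0.01 over 5 genes, with the ribosome rescue factor PELO at 0.23 and 0.48, SKIC8 at -0.29 and -0.05 and HBS1L at -0.06 and -0.17.

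Genes of the opposite, 5′ to 3′ route were mixed. Of 18 decapping and 5′ to 3′ decay genes, 1 was 2-fold or more below control on both arrays and none above it by as much, with medians of -0.02 (SD 0.49) and -0.35 (SD 0.38). In all, 8 of the 18 were lower with both siRNAs at any size. Among these were LSM proteins, which form rings that bind the 3′ ends of RNAs and, in the nucleus, U6 small nuclear RNA. LSM5 read 8775 in the control, 4373 with SETD8-1 and 4079.7 with SETD8-2 (2.01-fold and 2.15-fold lower), LSM2 had -0.97 and -1.21, and LSM6 had -0.77 and -0.76. With LSM3 (-0.75 and -0.71, named after its values were seen), 4 of the 7 LSM genes were under the control by 1.5-fold or more on both arrays, where 7.38% of all genes were. The LSM genes were singled out after their values were seen. LSM1, the subunit particular to the cytoplasmic ring, had 0.11 and 0.02, and the exonuclease XRN1 had 0.34 and -0.11. Both genes were named after their values were seen.

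None of the 16 deadenylation genes was 2-fold apart with both siRNAs. Their medians were 0.06 and -0.36, and the largest shared differences were those of CNOT9 (-0.34 and -0.64), CNOT3 (0.26 and 0.63) and CNOT10 (-0.18 and -0.63), subunits of the CCR4-NOT complex. The 6 nonsense-mediated decay genes that passed had medians of -0.10 and 0.05, with SMG8 at 0.30 and 0.34, SMG6 at 0.27 and 0.04 and UPF2 at -0.18 and -0.04. Of 8 proteins that bind AU-rich elements, none was 2-fold lower with both. ZFP36L2, which triggers mRNA decay, read 4725 in the control, 1526 with SETD8-1 and 3059 with SETD8-2 (-1.63 and -0.63), KHSRP, a splicing and decay factor that can bind the exosome, had -0.46 and -1.11, and HNRNPD had -0.33 and -0.89. The arrays of the SETD8 siRNAs thus differed on which of these genes stood lowest.

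**Figure D4:**
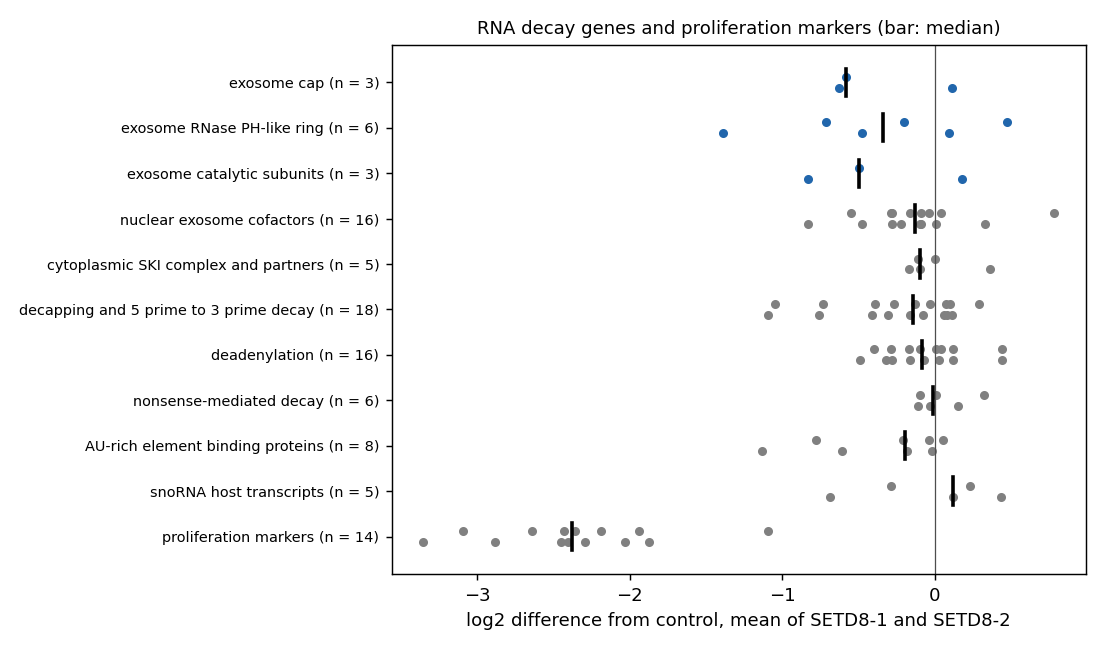
Log2 difference from control, as the mean of both SETD8 siRNA arrays (horizontal axis), for each gene that passed the filter (points) in 11 lists (vertical axis), with the list's median as a black bar. Blue points are the exosome subunits, including DIS3 and DIS3L with EXOSC10. The bar of the proliferation markers lies far to the left of the other bars, and EXOSC8 is the leftmost blue point. The list's medians were -2.51 for SETD8-1 and -2.30 for SETD8-2.

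Host transcripts of small nucleolar RNAs, whose polyadenylated forms are known substrates of the nuclear exosome, were read for 5 of 14 listed genes. GAS5 was read on 1 dim probe set, the only one named to it alone, at 130.1 in the control, 81.1 with SETD8-1 and 80.7 with SETD8-2 (-0.68 and -0.69). These differences lie inside the spread of 2.21 for genes of its signal. SNHG17 had 0.60 and 0.26, and EPB41L4A-AS1 had 0.34 and 0.13. The medians of the 5 were 0.19 (SD 0.48) and 0.04 (SD 0.46), none was 2-fold apart with both, and no direction was shared. For comparison, the proliferation markers had medians of -2.51 (SD 0.67) and -2.30 (SD 0.52). All 14 were lower with both siRNAs, and those at least 2-fold lower were MKI67, TOP2A, CCNA2, CCNB1, CDK1, BUB1, CENPF, AURKB, PLK1, MCM2, MCM6, RRM2 and TYMS. The clamp PCNA had -0.92 and -1.26. EXOSC8, at -1.22 and -1.56, was in the range of PCNA and smaller in size than most of the others.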

How the data were processed

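The deposited intensity of each probe set on the 3 arrays is a linear signal that the authors computed with MAS5, named in the submitters' processing notes. Its version is unstated in the sources used here, and detection calls were not used. MAS5 brings every array to one overall level, so a shift of all genes would not show. No further scaling was applied, and the number of arrays limits the precision.

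Names for the 54613 probe sets came from GEO's annotation of the platform, with symbols brought up to date through RefSeq gene numbers (41037 of the 41091 with 1 gene matched). The 1801 with several genes were left out, and 11721 are unnamed here. Signals below the 25th percentile, 11.7, were raised to it, and log2 was taken. The probe set of highest mean log2 signal stood for its gene, and genes whose mean was under the median of all probe sets (5.39) were dropped. The floor touched no member probe set above this filter.

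Members, lists and motifs were chosen with earlier results of these data known. Named were every member, DIS3, DIS3L and KMT5A, in each other list up to 3 genes with the largest difference shared by both siRNAs and any changed 2-fold or more, and the 5 genes closest to EXOSC8. MPHOSPH6 and some other listed genes without a probe set of their own are not analysed here. Alternatives changed the scaling (median or quantile), the floor (log2 of signal plus 16), the filter (none, or the 75th percentile), the choice of probe set (their mean, or none shared between transcripts) and the size counted (1.5-fold or 3-fold). The mean over probe sets above the filter was added after seeing the data. The steps were tested on simulated data, with planted changes larger than any member's and noise smaller than the spread seen here. That test checks the steps only and does not cover differences of the size reported. Software was Python 3.11.15 with numpy 2.4.6, pandas 2.3.3 and scipy 1.17.1, and figures were drawn in matplotlib 3.10.9.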

Additional observations from a re-analysis of the deposited data

How the results depend on the processing

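The exosome values kept their direction and size under median scaling, quantile normalization and the pseudocount. Across the settings that held it, EXOSC8 ranged from -1.24 to -1.20 with SETD8-1 and from -1.57 to -1.52 with SETD8-2. Leaving out shared probe sets removed EXOSC1, EXOSC8, EXOSC9 and EXOSC10, so no member (0) was then 2-fold lower with both siRNAs, and KMT5A had -0.48 with SETD8-1. Over the 6 members left, 3 were lower with both (7 of 10 before), the median against control went from -0.34 to -0.24 with SETD8-1 and from -0.42 to -0.01 with SETD8-2, and that of SETD8-2 minus SETD8-1 turned from -0.17 to 0.16. That setting also turned EXOSC3 with SETD8-2 from -0.93 to 0.45, and averaging its probe sets (all, or those above the filter) gave -0.38. The count of members lower with both was 2 at a threshold of 1.5-fold and 0 at 3-fold. EXOSC5 was lost by the filter at the 75th percentile. Of 150 recomputed values of single members, 147 moved by less than a noise estimate (the SD between the SETD8-1 and SETD8-2 arrays over the square root of 2, from 0.41 to 0.73 by signal), and the others were the 3 of EXOSC3 with SETD8-2. EXOSC7 with SETD8-2, a value near 0, was negative in 6 of 9 settings. Genes at least 2-fold lower and higher with both siRNAs numbered 398 and 185, against 737 and 460 without the filter and 204 and 80 with the filter at the 75th percentile. At thresholds of 1.5-fold and 3-fold they numbered 908 and 566, and 192 and 57. No paired analysis was possible because each siRNA has 1 array. Signals were well above the filter for the brightest probe set of each member, the dimmest being EXOSC5.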
